A study of Mus musculus with 36 samples.

Results

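In the mouse liver, 580 of 1456902 tested genomic windows were more methylated in mothers than in fathers and also more methylated in their virgin daughters than in their sons. Each window was a fixed 500-bp interval of an autosome in the mm9 genome build with at least 5 CpG sites and at least 30 sequenced counts in each of 24 animals. A window was a member where the mean methylation of the 6 dams exceeded that of the 6 sires by at least 20 percentage points and the mean of the 6 daughters exceeded that of the 6 sons by at least 20 points. The measured values of both contrasts thus chose the members, so the sex differences below are descriptions without a test. Tests are given only for contrasts that the rule did not use, or in 1 generation at windows chosen on the other. Tests between the generations share their animals with the rule, which limited how far dams and daughters, or sires and sons, could part.

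Whole-genome bisulfite sequencing, in which unmethylated cytosines are read as thymines and methylated cytosines are not, was run on bulk liver DNA of 3 animals in each of 8 groups. The parents were C57BL/6N (B6) males and females and C3H/HeN (C3) males and females. Their offspring were B6C3F1 males and females, from B6 dams and C3 sires, and C3B6F1 males and females, from C3 dams and B6 sires. The labels name no introduced allele and no test agent in any group, and by the study's methods all animals ate the same diets and were killed at week 20. The dams had borne and weaned a litter, whereas the F1 females were virgins, so dams and daughters differed in both breeding history and genetic background. The labels do not say whether replicate numbers follow families.

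DNA methylation at CpG sites is largely copied at cell division, and short stretches of low methylation away from start sites often mark enhancers occupied by transcription factors. The rodent liver expresses many genes differently in the sexes. Growth hormone is released in pulses in males and more steadily in females, which activates STAT5b differently, and the repressors BCL6 in males and CUX2 in females act downstream. Male-biased genes include Cyp2d9, Elovl3 and the Mup genes, and female-biased genes include members of the Cyp2a, Cyp2b and Cyp3a families.

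Across the autosomes the libraries held 365740739 to 619888157 CpG counts, or 19.4 to 32.8 counts per CpG. A member held a median of 181 counts in one animal, at which a value near 50% has a 95% Wilson interval of 42.5 to 56.9%; at the lowest member count of 35 that interval is 33.0 to 64.4%. Both intervals cover counting error only. In bulk liver, a lower level per cell and fewer cells with that level cannot be told apart. The start-site regions (500 bp on either side) of 8 hepatocyte markers averaged 21.1% in sires, 19.2% in dams, 20.6% in sons and 21.7% in daughters. Those of 10 measured leukocyte and Kupffer cell markers averaged 82.1%, 81.5%, 81.9% and 80.7% in the same order. The 5 endothelial markers averaged 52.0%, 52.2%, 51.7% and 51.8%, and the 4 stellate markers 17.1%, 18.3%, 17.3% and 18.0%. Among the markers of these lists, dams minus sires ran from -5.07 to 2.84 points and daughters minus sons from -4.23 to 4.36 points. The part of cell composition in the member differences was not tested.

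Sequence is shown for 4 members: the Sntg2 and Dock1 windows, which had the largest smaller-of-the-2 differences among members with at least 10 counts per CpG in every animal, and the windows close to the start sites of Cml5 and Elovl3. Each is a 240-base stretch of the mm9 plus strand, with the measured CpG sites in capitals.
Sntg2, chr12:31026501-31026740: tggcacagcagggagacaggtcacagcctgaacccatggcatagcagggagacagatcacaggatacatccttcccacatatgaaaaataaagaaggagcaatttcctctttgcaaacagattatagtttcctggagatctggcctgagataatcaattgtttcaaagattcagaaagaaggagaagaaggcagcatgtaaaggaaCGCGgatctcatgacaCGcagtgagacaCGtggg
Dock1, chr7:142235537-142235776: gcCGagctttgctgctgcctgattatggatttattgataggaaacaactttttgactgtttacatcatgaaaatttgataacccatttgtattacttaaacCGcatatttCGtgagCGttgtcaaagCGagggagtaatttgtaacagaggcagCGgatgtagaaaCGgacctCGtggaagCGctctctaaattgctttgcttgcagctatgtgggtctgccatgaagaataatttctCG
Cml5, chr6:85771501-85771740: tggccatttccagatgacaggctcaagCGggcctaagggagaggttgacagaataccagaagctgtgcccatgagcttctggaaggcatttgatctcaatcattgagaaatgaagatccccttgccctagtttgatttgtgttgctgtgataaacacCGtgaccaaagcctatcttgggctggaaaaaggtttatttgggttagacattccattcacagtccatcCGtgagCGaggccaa
Elovl3, chr19:46207054-46207293: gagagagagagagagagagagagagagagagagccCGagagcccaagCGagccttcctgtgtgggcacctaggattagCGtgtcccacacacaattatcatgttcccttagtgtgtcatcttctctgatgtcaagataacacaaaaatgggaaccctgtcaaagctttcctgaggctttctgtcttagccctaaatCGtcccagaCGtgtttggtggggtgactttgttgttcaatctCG
The CpGs are sparse in the Sntg2 and Cml5 stretches, where only 4 capital pairs stand in 240 bases, and denser in Dock1, which holds 10. The first bases of the Elovl3 stretch are a GA repeat.

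The Sntg2 window, chr12:31026501-31027000, lies in an intron of the gene for syntrophin gamma 2, 31240 bp downstream of the nearest start site. Its methylation was 16.5 to 34.4% in sires (median 29.6%) and 81.0 to 89.9% in dams (median 84.2%). In sons it was 17 to 36.8% (median 27.1%) and in daughters 79.1 to 91.4% (median 85.7%). The differences were 56.9 points in parents and 58.2 points in F1 animals, and no female of either generation came near a male. The Dock1 window, chr7:142235501-142236000, lies in an intron of a gene whose product activates the GTPase RAC. It read 17.5 to 32.3% in sires (median 27.1%) and 86.2 to 92.5% in dams (median 89.8%). Sons read 28.1 to 36.1% (median 33.0%) and daughters 82.7 to 92.7% (median 90.4%). These windows were nearly fully methylated in females and mostly unmethylated in males.

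By the naming rule, 12 members were picked for the largest smaller-of-the-2 differences, 1 per locus, with at least 10 counts per CpG in every animal. Besides Sntg2 and Dock1 they included windows in or nearest Gm12718 (71084 bp from the Oma1 start site), Rai14, Dap, Prkg2, Pik3c2g, Ttc39c, Mycbp2, Arhgap23 and 1190002N15Rik. Of these 12 windows 7 were intronic, 2 exonic and 3 intergenic, and 9 were more than 10 kb from any protein-coding start site. In all 12 windows the lowest of the 12 females was above the highest of the 12 males (background 0.107% of all tested windows), but they were picked for their sex difference and nothing is read from that count. The window in Pik3c2g, which encodes a class II phosphoinositide 3-kinase, had the largest parental difference of any member. It read 4.82 to 21.2% in sires (median 15.5%), 75.3 to 81.4% in dams (median 79.8%), 11.5 to 29.3% in sons (median 16.6%) and 57.1 to 71.7% in daughters (median 66.1%). Its parental difference of 64.9 points stood beside 47.2 points in F1 animals, with daughters all below dams. The Arhgap23 window, in an intron of that gene, was the least methylated of the 12. It read 2.61 to 13.0% in sires (median 10.4%) and 53.3 to 69.5% in dams (median 67.1%). Sons read 3.11 to 18.9% (median 8.14%) and daughters 47.4 to 59.8% (median 50.8%). Here too the dams lay above most daughters, while sires and sons overlapped. A window 1946 bp upstream of the predicted gene Gm5077, chr6:124589001-124589500, had a still larger smaller difference of 57.1 points but just under 10 counts per CpG in 1 animal; it is named after its values were seen.

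**Figure D1:**
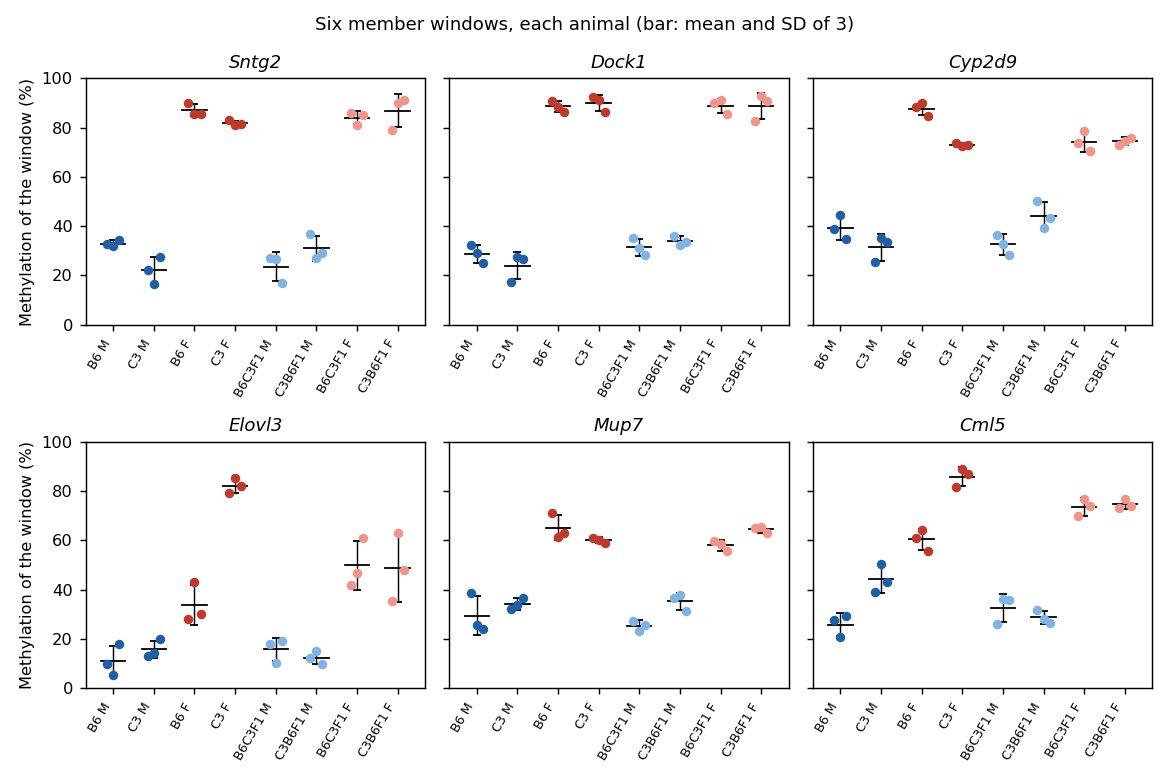
Methylation in percent (vertical axis) of 6 member windows in every animal, by group (horizontal axis, M male, F female); points are animals and bars show the mean and SD of 3. In each panel every female of a generation lies above every male of that generation, and in the Elovl3 and Cml5 panels the C3 females lie above the B6 females.

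Over all 580 members the dams exceeded the sires by a median of 28.8 points (quartiles 24.7 and 34.9, highest 64.9). The daughters exceeded the sons by a median of 25.5 points (quartiles 22.5 and 30.8, highest 58.2). Both differences reached 30 points in 141 members, 40 points in 40 and 50 points in 7. The parental difference was the larger in 431 members. At the threshold, the last windows inside were one in Ttc39c (20.0 points in parents, 20.5 in F1) and one 128409 bp from the Slc13a1 start site (24.2 and 20.0 points). The nearest outside were one in a Zfp710 intron (21.3 and 19.99 points) and one in a Manba intron (19.99 and 21.3 points).

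The males held the intermediate values. The median member read 43.4% in sires, 44.0% in sons, 74.6% in dams and 72.2% in daughters, whereas the median tested window read 86.1%, 85.9%, 85.3% and 85.7%. The sires averaged under 20% at 13 members, 20 to 50% at 386 and at least 50% at 181. The dams averaged at least 80% at 203 members (35.0%), against 65.4% of all tested windows.

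Animal by animal, the median over members was 37.6 to 46.7% in the 6 sires (median 43.3%) and 74.4 to 76.4% in the 6 dams (median 75.2%). It was 40.5 to 50.5% in the 6 sons (median 42.1%) and 70.5 to 74.2% in the 6 daughters (median 72.0%). The males spread over a wider range than the females, and the highest male was C3B6F1 male 1. Without that animal the rule would take 634 windows. Medians over all tested windows stayed within 84.8 to 86.8% in every animal.

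**Figure D2:**
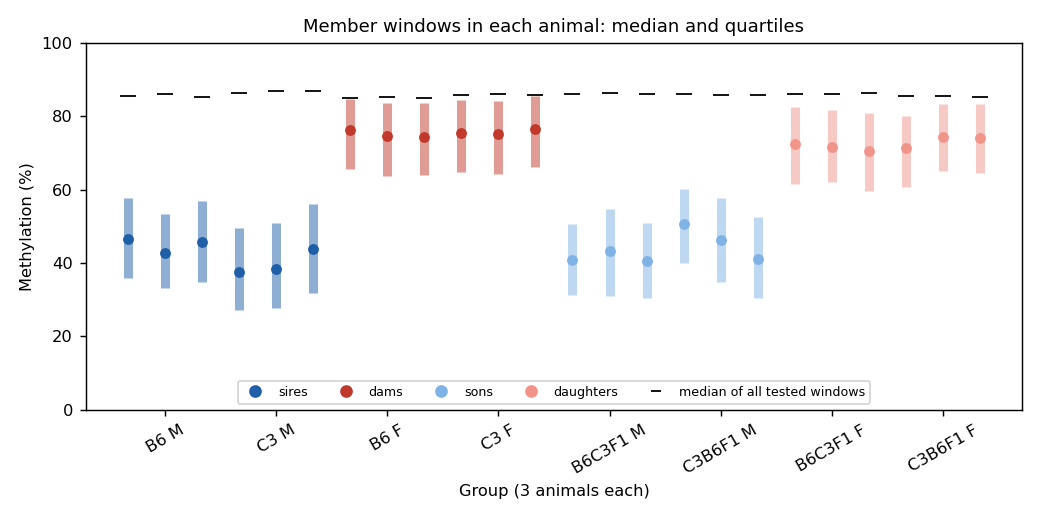
Median (point) and quartiles (bar) of the methylation in percent over the 580 members for each of the 24 animals, by group, with the median of all tested windows as a black dash. Male medians run from 37.6 to 50.5% and female medians from 70.5 to 76.4%, while the dashes stay near 86%.

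The low methylation of males was narrow. In 100-bp bins around the window centres, the mean CpG methylation of sires dipped to 41.1% just before the centre, where dams read 72.7%, and returned to 67.4% at 650 bp before it, where dams read 74.9%. Sons followed the sires, with 41.8% and 67.9% in these bins, and daughters the dams, with 70.2% and 74.2%. The female profiles showed no dip of like depth. The difference of dams over sires was 31.6 points in the central bin, 7.54 points at 650 bp before the centre and 3.63 points at 2750 bp before it. Of the 432 tested windows directly beside a member that were not members themselves, the median differences were 4.64 points in parents and 4.11 points in F1 animals, and 26.9% reached 10 points in both, against 0.198% of all tested windows. At 5000 bp the median differences were 0.28 and 0.36 points, and 5.89% of 492 windows reached 10 points in both.

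**Figure D3:**
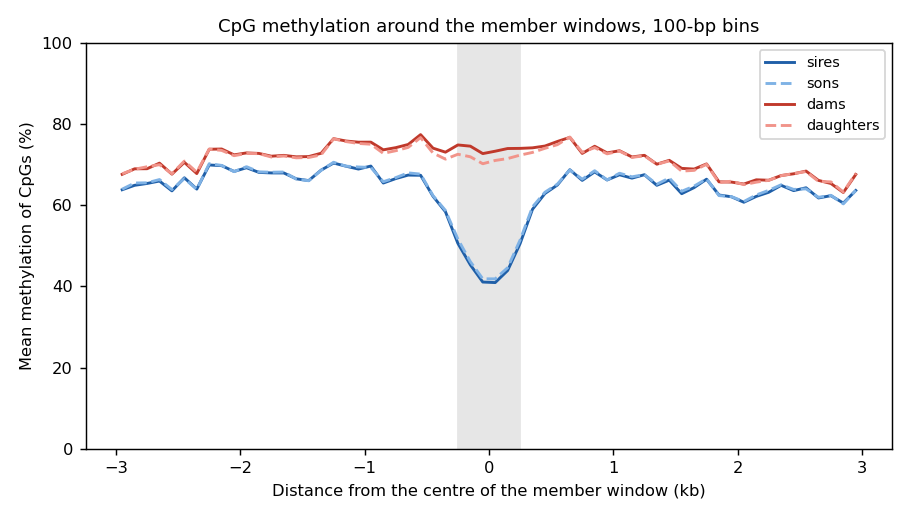
Mean CpG methylation in percent (vertical axis) by distance in kb from the centre of the member window (horizontal axis), in 100-bp bins averaged over 6 animals per class, with the member window shaded. Sires and sons dip to near 41% inside the window, while dams and daughters stay near 70 to 75%.

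The members formed 528 runs of adjacent windows, of which 485 were single windows and the longest held 4. Members within 10 kb of each other made 457 loci, and 400 loci held 1 window. Intervals between 2 and 5 windows made 54 loci, and 3 loci held 6 or more. By chromosome the members numbered 2.23 to 5.40 per 10000 tested windows except on chromosome 18, which had 13.0 and held 69 members. Of those, 45 lay in or beside Ttc39c, which encodes a tetratricopeptide-repeat protein, and Cabyr, which encodes a calcium-binding protein first described in sperm.

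These 45 members fell within 106.5 kb, from 37.6 kb to 144 kb downstream of the outermost Ttc39c start site, where 111 windows were tested. Another annotated Ttc39c start site lay inside the stretch, 38648 bp upstream of the member at chr18:12840501-12841000. Across all 111 the medians were 46.6% in sires, 78.1% in dams, 45.1% in sons and 74.4% in daughters. Of the 66 windows there that were not members, dams were above sires in 55 and daughters above sons in 57, with median differences of 8.66 and 8.65 points. Over all tested windows dams were above sires in 37.7% and daughters above sons in 47.2%. The stretch was broken by windows near 0% in both sexes. One of them, chr18:12802001-12802500 next to the inner Ttc39c start site, held 60 CpGs and averaged 0.20% in sires and 0.46% in dams. In the 100 kb on either side, 165 tested windows held 2 members, and their median differences were 0.58 points in parents and 0.37 points in F1 animals. The strongest of the stretch by the naming rule, in a Ttc39c intron 26833 bp from the Cabyr start site, read 20.7 to 40.7% in sires (median 30.9%) and 74.7 to 82.2% in dams (median 78.2%). Sons read 21.6 to 40.7% (median 31.4%) and daughters 72.9 to 83.9% (median 76.4%). The window 637 bp downstream of the Cabyr start site read 35.0 to 47.7% in sires (median 40.5%), 73.2 to 83.0% in dams (median 78.5%), 36.1 to 47.3% in sons (median 45.4%) and 70.0 to 80.5% in daughters (median 73.5%). The sexes did not overlap in either window.

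**Figure D4:**
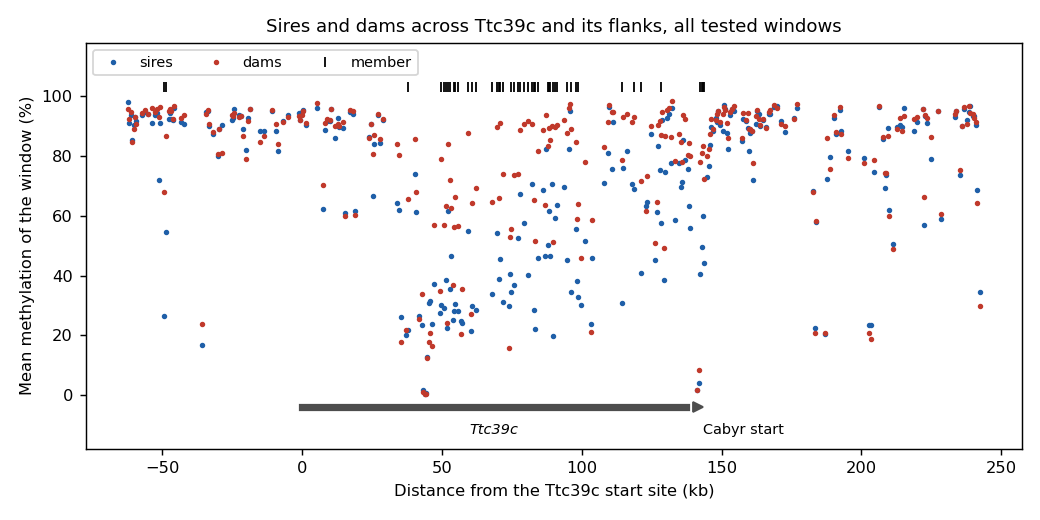
Mean methylation in percent of every tested window in sires and dams (6 animals each) by distance in kb from the outermost Ttc39c start site, with Ttc39c drawn as a bar, the Cabyr start as an arrowhead and members as ticks. Between 37.6 and 144 kb dams exceed sires in 55 of the 66 windows that are not members, and in the flanks most windows lie close together, apart from 2 members and a few other windows.

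Counted by gene overlapped, or else by nearest start site, the genes with the most members were Ttc39c (41), Scara5 (9), Scp2 (8), Gm12718 (6), and Gm20388 and Rassf3 (5 each). Scara5 encodes a scavenger receptor that takes up ferritin, and Scp2 a sterol carrier protein of peroxisomes. The 6 windows at Scara5 that made 1 locus spanned 5000 bp, with median differences of 35.5 points in parents and 27.8 in F1 animals. The 6 windows at Gm12718 and Oma1, which encodes a mitochondrial protease, spanned 7500 bp with medians of 38.3 and 37.4 points. Within that locus, the window in Gm12718 read 17.7 to 33.3% in sires (median 25.6%) and 75.2 to 85.5% in dams (median 82.0%). Sons read 21.1 to 42.0% (median 24%) and daughters 73.1 to 86.2% (median 78.4%).

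Annotated against gene models of the same build (GENCODE), 277 members (47.8%) were intronic, 215 (37.1%) intergenic and 88 (15.2%) exonic. Of all tested windows 38.7% were intronic, 45.7% intergenic and 15.5% exonic. Only 20 members (3.45%) lay within 1 kb of a protein-coding start site, against 6.10% of all tested windows, and 417 (71.9%) lay more than 10 kb away, against 73.7%. The members held a median of 6 CpGs, against 7, and had a median GC content of 44.2%, against 46.0%. Windows with a mean methylation of 30 to 80% also held a median of 6 CpGs. They were 36.5% intronic, 53.1% intergenic and 10.4% exonic. The windows high in dams but not by 20 points in daughters were much like the members, with 50.2% intronic, 3.35% within 1 kb and a median GC content of 44.6%. Single-nucleotide differences between B6 and C3 fell in 99 members (17.1%), against 22.1% of all tested windows. With 1 window kept per locus (457 windows), the shares were 43.5% intronic, 43.3% intergenic and 13.1% exonic, so part of the intronic share came from the clustered loci. The 48 windows that were lower by 20 points in both dams and daughters differed in place. Of them, 16.7% were within 1 kb of a start site, the median distance was 3697 bp against 23101 bp for the members, and the median GC content was 51.4%.

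Among the members near start sites, 5 were picked by the size of the smaller difference, at Cml5, Elovl3, Mup7, Cabyr and Zmynd8. Cml5, a camello-like N-acetyltransferase gene, had a member 535 bp upstream of its start site. There the sires read 20.6 to 50.2% (median 34.1%), the dams 55.8 to 89.1% (median 72.9%), the sons 26.0 to 36.1% (median 29.8%) and the daughters 69.9 to 76.9% (median 73.9%). The parents of each sex spread widely while the F1 animals were tight. C3 exceeded B6 there by 22 points over both sexes (limma, Benjamini-Hochberg adjusted p = 2.34e-08), and the window holds 3 single-nucleotide differences between the strains. The window 450 bp inside Zmynd8, which encodes a chromatin reader, read 47.3 to 63.8% in sires (median 62.1%) and 89.5 to 93.1% in dams (median 91.2%). Sons read 49.8 to 70.4% (median 63.5%) and daughters 85.5 to 92.7% (median 92.2%).

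Of 25 male-biased liver genes with a tested window, 8 had a member overlapping them or within 10 kb, with 18 member windows in all. Across all protein-coding genes with a tested window this held for 331 of 21020 genes (1.57%), and a long gene has more windows to be counted by. The gene lists were chosen with earlier results of these data known, and Prlr among them is an example gene of the paper. Their counts here and below are thus descriptions, not a test of the lists. None of 36 female-biased genes had a member by this count, and none of the 21 genes of growth hormone and STAT5 signalling did. Members nearest the Bcl6 start site (2 windows) and the Onecut1 start site (1 window), both of the latter list, lay over 10 kb from these genes. So did 1 member each nearest the male-biased Cyp4a12a and Cyp7b1. The windows lower in both dams and daughters showed the opposite count: 10 of the 36 female-biased genes had one, as did 33 of the 21020 genes and none of the male-biased genes. Those 10 were Cyp2a4, Cyp2b9, Cyp2b13, Cyp2c40, Cyp2c69, Cux2, A1bg, Prlr, Hamp2 and Nipal1, of which Cux2 and Prlr were also in the growth hormone list. Of the liver transcription factors 3 of 19 had a member, and of the nuclear receptors 2 of 27. The hepatocyte, leukocyte and Kupffer cell, endothelial and stellate marker lists had none.

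The male-biased genes with members were Cyp2d9, Elovl3, Mup7, Mup21, Gstp1, Serpina1e, Susd4 and Egfr. Cyp2d9, a steroid hydroxylase of the male liver, had 4 members within 6000 bp. The window 1194 bp downstream of its start site, chr15:82284001-82284500, read 25.3 to 44.6% in sires (median 35.2%) and 72.5 to 90.0% in dams (median 79.2%). Sons read 28.2 to 50.3% (median 38.0%) and daughters 70.4 to 78.7% (median 74.1%). The adjacent window read 35.3 to 58.3% in sires (median 40.1%), 80.4 to 92.5% in dams (median 88.0%), 38.3 to 63.0% in sons (median 42.4%) and 82.8 to 88.6% in daughters (median 83.5%). In both windows the sexes were far apart in each generation. The other 2 windows, 2694 and 6694 bp from the start site, had parental differences of 29.8 and 27.2 points and F1 differences of 26.9 and 27.1 points.

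Elovl3, a fatty acid elongase gene of male-biased expression, had 4 members in the gene and 1 beyond it in Pitx3. The member 614 bp downstream of its start site read 5.48 to 19.8% in sires (median 13.6%), 28.0 to 85.2% in dams (median 61.1%), 9.88 to 18.9% in sons (median 13.6%) and 35.1 to 62.8% in daughters (median 47.4%). Males were low in every group and females ranged widely. Its sex difference was 22.7 points in B6 and 66.5 points in C3, and 34.1 and 36.3 points in B6C3F1 and C3B6F1. C3 exceeded B6 by 26.6 points averaged over both sexes (limma adjusted p = 6.96e-06). The sires of both strains lay within 5.48 to 19.8%, so the larger part of that gap was among dams. The strain-by-sex interaction did not pass on the log2 scale of the fit (limma adjusted p = 0.44). The window 2114 bp downstream, chr19:46208501-46209000, had no such strain difference (B6 minus C3 of -1.97 points, limma adjusted p = 0.672). It read 26.7 to 39.1% in sires (median 30.8%), 74.6 to 84.8% in dams (median 77.7%), 27.0 to 42.7% in sons (median 39.1%) and 67.7 to 83.0% in daughters (median 76.4%). The remaining 3 near Elovl3 had parental differences of 22.9 to 30.5 points.

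The Mup genes encode major urinary proteins that carry pheromones. The member at the Mup7 start site, in an annotation that also runs through Mup2, read 23.9 to 38.5% in sires (median 32.9%) and 58.9 to 71.1% in dams (median 61.2%). Sons read 23.1 to 37.7% (median 29.2%) and daughters 55.5 to 65.4% (median 61.4%). A second Mup7 member, 2783 bp downstream, read 40.3 to 65.9% in sires (median 52.4%) and 89.5 to 93.7% in dams (median 92.5%). The member 7104 bp upstream of Mup21 read 36.6 to 61.1% in sires (median 47.3%), 78.7 to 86.8% in dams (median 82.7%), 44.5 to 58.5% in sons (median 54.3%) and 73.7 to 82.9% in daughters (median 76.7%). The Mup, Cyp2d and Serpina1 genes are families of near copies, so reads could be split or misplaced among them and their levels are uncertain.

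Gstp1, a glutathione S-transferase, had a member 2912 bp downstream of the nearest start site that read 32.5 to 50.9% in sires (median 42.3%) and 80.7 to 91.7% in dams (median 87.7%). Sons read 45.3 to 64.4% (median 56.7%) and daughters 87.7 to 92.9% (median 92.0%). Serpina1e, an alpha-1-antitrypsin gene, had 2 members with parental differences of 24.7 and 31.9 points and F1 differences of 28.8 and 23.1 points. Susd4, which encodes a complement regulator, had 1 member 3643 bp upstream with differences of 27.7 and 26.4 points. Egfr, the epidermal growth factor receptor gene, had 2 members with parental differences of 22.8 and 22.6 points, close to the threshold, and in 1 of them dams and sires overlapped.

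Among regulators, Nr5a2, a nuclear receptor of bile acid synthesis, had a member in an intron that read 41.8 to 70.8% in sires (median 53.1%) and 88.3 to 98.6% in dams (median 93.3%). Sons read 63.0 to 73.4% (median 65.8%) and daughters 79.5 to 93.9% (median 89.9%). Rora, which encodes a clock-linked nuclear receptor, had 2 members with parental differences of 20.9 and 27.5 points, and daughters and sons overlapped in the first. The forkhead genes Foxa3 and Foxo3 each had 1 intronic member, with parental differences of 27.7 and 27.5 points and F1 differences of 24.1 and 20.2 points. The Foxa3 window held as few as 5.83 counts per CpG in an animal.

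Short motif letters were counted on both strands of each 500-bp window, as a description and without a test. The motif list too was chosen with earlier results of these data known. The letters ATCAAT are part of the site of HNF6 (ONECUT1) and related homeodomain factors. They stood in 216 members (37.2%), against 17% of all tested windows and 18.7% of the 390762 windows with 30 to 80% mean methylation. With 1 window per locus the share was 41.4%. At a GC content of 40.6 to 48%, the middle range of the members, it was 38.3% of 300 members. Of the 179461 windows with 30 to 80% methylation in that GC range, it was 19.4%. It was 35.7% of the 112 windows high in daughters but not by 20 points in dams, 28.2% of the 418 high in dams but not by 20 points in daughters, and 12.5% of the 48 windows lower in females. The median smaller difference was 24.9 points in members with these letters and 24.6 points in those without. Of the 12 members named for their size, 8 held these letters. They are shown in capitals with 12 bases on either side in 3 of those 8 and in the Cml5 window.
Sntg2, chr12:31026641-31026670: tggcctgagataATCAATtgtttcaaagat
Dock1, chr7:142235557-142235586: gattatggatttATTGATaggaaacaactt
Cml5, chr6:85771927-85771956: gagataagaatgATTGATttcactaacatg
1190002N15Rik, chr9:94280293-94280322: gataaacaagtgATCAATggggttgatcga
The letters TTCNNNGAA, a STAT site, stood in 22.8% of members, 15.7% of all tested windows, 17.3% of those with 30 to 80% methylation and 22.5% of those high in dams but not by 20 points in daughters. TTGCNNAA, a C/EBP site, stood in 26.7%, 19.7% and 21.9%, and TGTTTAC, a forkhead site, in 9.48%, 7.05% and 8.16%. The windows high in dams but not by 20 points in daughters had like shares for these, 26.6% and 9.57%. The nuclear receptor half-site AGGTCA stood in 32.8%, 27.6% and 30.8%. Among the 112 windows high in daughters but not by 20 points in dams, the shares differed from those of the members. They were 16.1% for the STAT letters, 22.3% for C/EBP, 10.7% for the forkhead letters and 40.2% for the nuclear receptor half-site. In the GC range given above, the shares of members and of windows with 30 to 80% methylation were 25.3% and 17.5% for the STAT letters, 27.3% and 24.3% for C/EBP, 36.3% and 30.0% for the nuclear receptor half-site, and 9.33% and 9.32% for the forkhead letters, which thus showed no excess there. The steroid receptor half-site TGTTCT stood in 36.2%, 38.0% and 38.6%, and the E-box CACGTG in 9.14%, 9.11% and 9.94%, so neither was much more common in members. In the 112 windows high in daughters but not by 20 points in dams they stood in 28.6% and 14.3%. CAAAGTCCA of HNF4 stood in 8 members (1.38%), against 0.645% of all tested windows and 0.799% of those with 30 to 80% methylation. The HNF1 motif stood in 1 member (0.172%), against 0.034% and 0.048%. A window may hold several motifs, and some letters recur in short repeats, as at Prkg2 and Arhgap23.

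The rule set the mean sex difference of B6 and C3, and that of the 2 crosses, so the direction within each strain and cross was largely fixed by the choice of members; what it left free was how far the strains differed. Females exceeded males in all 580 members in each of B6, C3, B6C3F1 and C3B6F1, as they did in 5.97% of all tested windows in all 4, and nothing is read from that count. The median sex difference was 26.9 points in B6 (lowest 7.89, highest 63.7), 32.0 points in C3 (4.73 to 69.2), 27.1 points in B6C3F1 (14.8 to 60.5) and 25.0 points in C3B6F1 (8.93 to 60.1). The sex difference reached 20 points in 487 members in B6, 548 in C3, 538 in B6C3F1, 459 in C3B6F1, and in all 4 in 347 (background 0.0238%). Over all tested windows the shares were 0.0639%, 0.102%, 0.0581% and 0.0450% in the same order. Both strains reached it in 455, C3 alone in 93 and B6 alone in 32.

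All 3 females lay above all 3 males in 574 members in B6 (background 4.78% of all tested windows), 576 in C3 (background 4.44%), 579 in B6C3F1 (background 5.86%) and 576 in C3B6F1 (background 4.71%). All 6 dams lay above all 6 sires in 543 members (background 0.361%) and all 6 daughters above all 6 sons in 568 (background 0.409%). All 12 females lay above all 12 males in 519 (background 0.107%). These counts come from the contrasts that chose the members and nothing is read from them.

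The sex difference was larger in C3 than in B6 in 443 of 580 members (76.4%), against 48.7% of all tested windows, with a median excess of 5.19 points. The strains differed by under 10 points in 395 members, by 10 to 20 points in 146 and by 20 points or more in 39, of which 28 were larger in C3. C3 males were below B6 males in 418 members (72.1%, against 38.3% of all tested windows), with a median gap of 4.93 points. C3 females were below B6 females in 239 members (41.2%, against 40.1%), with a median gap of -0.99 points. In these counts the strains parted further in males than in females. Leaving out each parent in turn gave 406 to 469 members with the larger difference in C3. The animals' medians over members overlapped, at 42.7 to 46.7% in B6 males and 37.6 to 43.9% in C3 males.

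Tested window by window, the interaction of strain and sex passed in 1 member, larger in C3, and in none larger in B6 (limma, Benjamini-Hochberg adjusted over all 1456902 windows, with a difference of at least 20 points). The background was 0.00151% of all tested windows in either direction. At an unadjusted p below 0.05 the counts were 124 larger in C3 and 21 larger in B6, against 35924 and 43014 among all tested windows. The member that passed, chr5:147409001-147409500, lies 12186 bp upstream of Gpr12, which encodes an orphan G protein-coupled receptor. Its means were 84.7% and 83.9% in B6 and C3 females but 61.2% and 19.1% in B6 and C3 males, so the strains parted in males. The F1 males lay between, at 39.5% in B6C3F1 and 44.5% in C3B6F1. The sex difference of B6 minus that of C3 was -41.2 points, or -2.68 ± 0.43 (SE) on the log2 scale of the fit, with a limma adjusted p of 0.0366. The window holds 3 single-nucleotide differences between the strains. No member passed on leaving out any 1 of the 3 B6 males, the 3 B6 females, the 3 C3 males, C3 female 3 or C3B6F1 female 1. The difference near Gpr12 itself stayed between -43.6 and -37.7 points without each parent in turn.

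**Figure D5:**
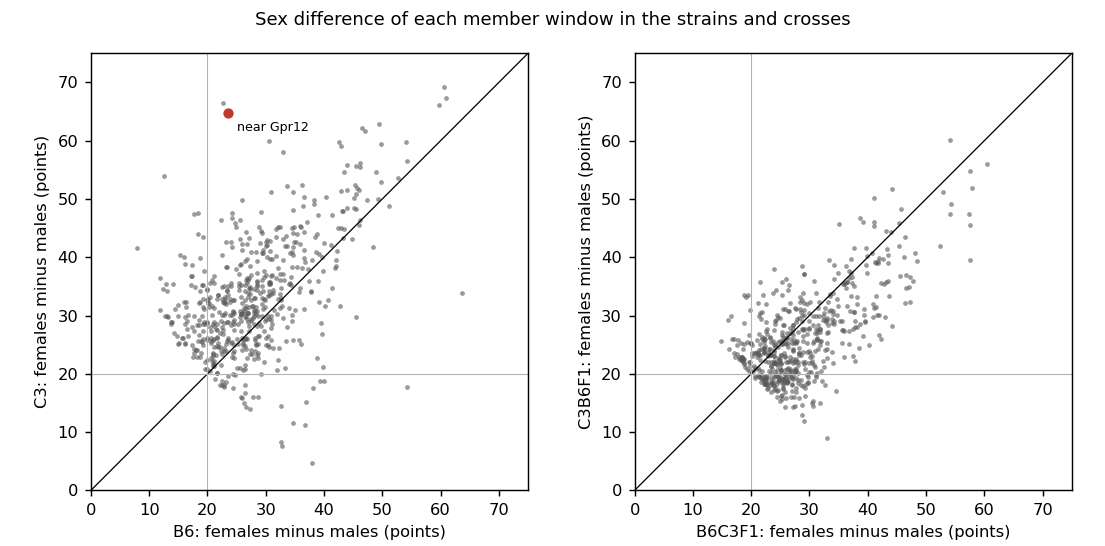
Sex difference in percentage points (females minus males, means of 3 and 3 animals) of each of the 580 members, C3 against B6 on the left and C3B6F1 against B6C3F1 on the right, with the line of equality and gray lines at 20 points. In the left panel 443 members lie above the line, and the window near Gpr12, in red, reads 23.6 points in B6 and 64.7 in C3.

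Averaged over the sexes, B6 exceeded C3 in 18 members (background 0.245%) and C3 exceeded B6 in 8 (background 0.249%) by limma with Benjamini-Hochberg adjustment and a difference of at least 20 points. Of these 26, 15 (57.7%) held a single-nucleotide difference between the strains, against 84 of the other 554 (15.2%). The smallest adjusted p belonged to a window in an intron of Cast, the calpastatin gene, which inhibits calpains, 1369 bp from its start site and with no single-nucleotide difference. There the males averaged 26.4% in B6 and 78.4% in C3, the females 59.2% in B6 and 86.0% in C3, and B6 minus C3 was -39.4 points (log2 -2.70 ± 0.18, SE; limma adjusted p = 4.32e-13). A window in an intron of Fez2, with 4 single-nucleotide differences, held as few as 5.43 counts per CpG in an animal. Its B6 minus C3 was -47.5 points (limma adjusted p = 3.80e-12), with a sex difference of 37.9 points in B6 and 4.73 points in C3. A window in an intron of Ephx1, the microsomal epoxide hydrolase gene, went the other way. The males averaged 49.9% in B6 and 20.2% in C3, the females 73.4% and 46.4%, a strain difference of 28.4 points (limma adjusted p = 1.34e-09) beside sex differences of 23.5 and 26.2 points.

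Between the reciprocal crosses no member passed (limma; background 0.000686%), with 5 members higher in B6C3F1 and 109 lower at an unadjusted p below 0.05. Over all tested windows the balance ran the other way, at 68295 higher and 29240 lower. The interaction of cross and sex passed in no member either (limma; background 0.0000686%), with unadjusted counts of 45 larger in B6C3F1 and 5 larger in C3B6F1, against 42379 and 28578 of all tested windows. The sex difference was larger in B6C3F1 in 388 members (66.9%), and in 317 without C3B6F1 male 1. The share over all tested windows was not taken, so nothing is read from these 2 counts. The median excess of B6C3F1 was 2.85 points at members and 0.20 points, in the same direction, over all tested windows. C3B6F1 males exceeded B6C3F1 males by a median of 4.10 points, or 2.39 points without C3B6F1 male 1, and C3B6F1 females exceeded B6C3F1 females by 1.27 points.

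Between dams and virgin daughters, no member passed as higher in dams (limma; background 0.000755%), with 130 higher at an unadjusted p below 0.05, and 1 passed as lower in dams (background 0.019%), with 11 lower unadjusted. Over all tested windows the unadjusted counts were 33838 higher and 81850 lower in dams. The rule chose members on the values of these same animals and left out the 418 windows high in dams but not by 20 points in daughters. How far dams and daughters could part at members was thus limited by the choice, as it was for sires and sons. The low counts that passed are not read as likeness of the generations. The median of dams minus daughters was 2.07 points at members and -0.37 points over all tested windows. The window that passed, chr13:75199501-75200000, lies 27274 bp upstream of Pcsk1, a prohormone convertase gene. It read 43.0 to 55.1% in dams (median 48.5%), 63.5 to 78.3% in daughters (median 68.2%), 24.7 to 32.0% in sires (median 29.4%) and 22.3 to 41.7% in sons (median 32.8%). The dams lay between the males and the daughters, 21 points below the daughters (log2 -1.28 ± 0.17, SE; limma adjusted p = 5.18e-05). No member passed without B6 female 2 or without C3B6F1 female 1. Sires and sons gave no passing member (limma; background 0.00227%), with 17 higher and 51 lower in sires at an unadjusted p below 0.05, against 50060 and 41116 of all tested windows, and a median difference of -0.81 points.

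Choosing windows on one generation left the animals of the other generation out of the choice, so that generation was tested with no margin on size. Of the 998 windows at least 20 points higher in dams than in sires, daughters exceeded sons in 919 by limma with a Benjamini-Hochberg adjusted p below 0.05 (background 0.292%). Sons exceeded daughters in none, with 985 and 0 at an unadjusted p below 0.05. Of the 692 windows at least 20 points higher in daughters than in sons, dams exceeded sires in 677 by the same limma call (background 0.512%). Sires exceeded dams in none, with 690 and 0 unadjusted. Adding the margin of 20 points turns these counts into the rule's own: 579 of the 580 members for F1 animals (background 0.0474%) and 580 of 580 for parents (background 0.0684%), from which nothing is read. The members were 58.1% of the windows high in dams and 83.8% of those high in daughters. Of the 520 windows at least 20 points lower in dams than in sires, 48 (9.23%) were also lower in daughters by that margin, which was 92.3% of the 52 windows lower in daughters than in sons, and no window differed by 20 points in opposite directions in the generations.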

How the data were processed

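The authors deposited, for whole-genome bisulfite libraries of 24 mouse livers, methylated and unmethylated read counts per CpG in mm9 coordinates and a list of B6 and C3 single-nucleotide differences. Per the submitters' processing notes the tools included CASAVA 1.8.2, Bismark 0.7.8 and Bowtie 0.12.8. Bisulfite reads cannot separate a C-to-T difference between strains from an unmethylated C. The paper limited its methylation analysis to autosomal CpGs found in mm9 and in both local assemblies, with read support in each strain. The 18887127 autosomal CpGs counted here equal the number it gives for them. The deposited counts of both strands were summed over fixed 500-bp autosomal windows, and methylation is the methylated share of the counts in percent.

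The members and the gene and motif lists were chosen with earlier results of these data known. Tests used limma 3.58.1 in R 4.3.3 on log2((methylated + 1)/(unmethylated + 1)), with 8 group means, a trended robust prior and Benjamini-Hochberg adjustment over all tested windows; a call needed an adjusted p below 0.05 and 20 points. The fit was tested on simulated counts. Labels name replicate animals but no family, so p-values measure the spread between animals of a group. Over a sample of the tested windows, deviations of same-numbered animals of different groups had r of -0.019 to 0.048 (84 pairs, mean 0.0066). The mean was -0.0033 for pairs of different numbers. Same-numbered animals that could be mates had r of 0.0070 to 0.024, and F1 brothers and sisters 0.0078 to 0.048, all above 0. At the members their r ran from -0.138 to 0.135, beside -0.126 to 0.107 for 168 pairs of different numbers. These values are small and cannot tell whether the numbers follow families. Numbers were not taken as pairs because the labels name no family.

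The text names the 12 members with the largest smaller difference read at 10 counts per CpG in every animal (1 per locus and gene), the 5 strongest within 1 kb of a start site, members within 10 kb of listed genes, up to 3 calls per test, the 5 genes with most members, and 2 windows on either side of the threshold. Gene models were GENCODE M1 on the same build. Samples of FOXA1 chromatin were not analysed here. One window picked by this rule is not reported here.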

Additional observations from a re-analysis of the deposited data

Results flagged for a closer look

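In 43 named windows and for the animals' medians, 176 sets of 6 animals were examined for 1 animal standing apart, and 16 sets had an end value whose gap to the next, over the whole range, passed Dixon's critical value. Chance gives about 1 in 20 sets. C3B6F1 male 1 was the highest son in 4 of them: 42.0% at Gm12718 (next 28.1%), 50.3% at Prkg2 (next 24.1%), 35.4% at the window near Rai14 (next 24.2%) and 63.0% at the Cyp2d9 window 1694 bp from the start site (next 45.1%). The highest son at Nr5a2 was C3B6F1 male 2, at 73.4%.

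Among daughters, C3B6F1 female 1 was lowest at Prkg2, at 62.9%, and B6C3F1 female 2 lowest at Zmynd8, at 85.5%. Among sires, C3 male 1 was lowest at Zmynd8, at 47.3%, B6 male 3 highest at the first Rora window, at 36.3%, and C3 male 3 highest at the Elovl3 window 2614 bp from the start site, at 61.8%. Among dams, B6 female 1 was highest at the Mup7 start site, at 71.1%, C3 female 3 highest at the first Egfr window, at 93.4%, and C3 female 1 highest at the Elovl3 window 2114 bp from the start site, at 84.8%. B6 female 2 was lowest at the second Rora window, at 77.7%, B6 female 3 lowest at Arhgap23, at 53.3%, and C3 female 1 lowest at a Serpina1e window, at 74.4%.

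The sex difference near Gpr12 differed between the strains by a test of the interaction, at -41.2 points for B6 minus C3 (limma adjusted p = 0.0366). The call was lost on leaving out any 1 of 11 animals, 10 of them parents, while the difference stayed between -43.6 and -37.7 points without each parent.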

How the results depend on the processing

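The number of members was 141 at 30 points, 1172 at 15 points, 71 with at least 10 CpGs, 383 with at least 100 counts in each animal and 347 with 20 points within each of the 4 strains and crosses. It stayed within 1.5 times for shifted windows (555), thinned counts (556) and means over CpGs (551), but only 363 of the 580 members (62.6%) were overlapped by a shifted window that passed, so the rest depend on where the windows start. It ranged from 533 to 634 on leaving out each animal. Keeping 1 window per locus, chosen after seeing the data, left 457. By adjusted p alone, chosen after seeing the data, daughters exceeded sons in 611 and dams exceeded sires in 447 of the windows left with at least 100 counts, and in 869 to 920 and 672 to 679 without each animal. With a margin on size, daughters exceeded sons in 916 windows selected on parents at a margin of 10 points, in 383 at 20 points with at least 100 counts and in 521 to 622 without each animal; dams exceeded sires in 383 windows selected on F1 animals with at least 100 counts and in 566 to 599 without each animal. At 10 points B6 exceeded C3 in 79 members and C3 exceeded B6 in 25; with at least 100 counts the latter was 4, and without each animal the counts were 13 to 18 and 7 to 10. The interaction larger in C3 was called in 2 members with at least 100 counts, a pseudocount of 5 or an arcsine scale, in 0 with the replicate block and in 0 to 2 without each animal; larger in B6 it was called in 1 with a pseudocount of 5 or the arcsine scale. Dams above daughters rose to 11 at 10 points and dams below to 2, with 0 to 2 without each animal. The block by replicate number, a pairing that the labels do not give, changed no other call count by more than 1.5 times. The cause of these changes was not tested beyond the windows each setting removes or adds. Depth limits single windows: at 181 counts, taken as independent, an interval spans 42.5 to 56.9%.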
